A study of Mus musculus with 6 samples.

Results

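Rnase2a and its companions were listed as genes of eosinophils and of type 2 immunity. The group was made of 10 listed genes. The eosinophil-associated ribonuclease genes were Rnase2a and Ear2, and the eosinophil genes Prg2, Siglecf and Il5ra. The others were the alarmin gene Il33, its receptor gene Il1rl1, and the type 2 macrophage products Retnla, Chil3 and Arg1. Of the 10 genes, 8 had a probe set annotated with 1 gene symbol, among 18193 genes in all. Each of the 8 had 1 such probe set. Ear2 and Il1rl1 were not analysed here. The list was chosen by the epididymal signals of Rnase2a in Kdm4b knockout and wild-type mice, since no gene was more increased there. That comparison is therefore described without a test, and the question was whether other eosinophil genes followed it.

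The samples came from male mice at 2 months of age that lacked Kdm4b throughout the body (KO) or were wild type (WT). Kdm4b encodes a demethylase of histone H3, and the study asked about the obesity of mice without it. All mice were housed at room temperature on a chow diet and fasted for 6 hours before sampling. Epididymal (Epi), subcutaneous (SubQ) and brown fat (BAT) of each genotype gave 1 Affymetrix array each, 6 arrays in all, so that no depot had a replicate and precision is limited by how few arrays there are. The number of mice behind a sample is not stated in the labels, nor is the making of the Kdm4b allele or whether the depots shared mice.

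Eosinophils are granulocytes that store ribonucleases and basic proteins in their granules and need interleukin-5. In lean fat they supply type 2 cytokines, which keep resident macrophages in an alternatively activated state marked by Retnla, Chil3 and Arg1. Interleukin-33, released by stromal cells, acts through the receptor ST2 on innate lymphoid cells that recruit eosinophils.

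Signals below 63.2, the 40th percentile of probe sets, were raised to that value, called the floor here. Between 12650 and 13601 genes lay above it on an array. A fold whose dimmer array did not exceed the floor is written as "at least". Genes are called measured in a depot if either of its arrays exceeded the floor. A gene over the floor on only 1 of them can only count as higher on that array. Within a depot the only available error was the SD among probe sets of a gene, on the log2 scale 0.31 in epididymal fat, 0.32 in subcutaneous fat and 0.32 in brown fat, and it holds nothing of the variation among animals. Kdm4b itself had signals of 188 in KO and 227 in WT epididymal fat, 157 and 272 in subcutaneous fat, and 95.2 and 135 in brown fat, lower in each KO array. Its epididymal log2 difference of -0.27 was smaller than that SD. The gene had 1 probe set, which checks nothing if it lies outside the deleted exons, and those are not named in the labels.

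Rnase2a encodes a secreted ribonuclease of the eosinophil-associated family, also known as Ear11. The family name does not tell which cells in fat gave the signal, and that was not tested. Its signal was 4016 in KO and 155 in WT epididymal fat, and 335 in KO and 60.9 in WT subcutaneous fat. In brown fat it was 9.98 in KO and 10.1 in WT. The gene was thus brightest in the epididymal KO array, followed by subcutaneous KO and epididymal WT, and it was at or under the floor on the other 3 arrays. With 1 array per depot and genotype, neighbours in that order could not be set against a spread between animals. The epididymal ratio was 25.9-fold, a log2 difference of 4.70, the first of 13244 measured genes, as the choice of the gene required. In subcutaneous fat, which that choice did not use, Rnase2a was at least 5.31-fold higher in the KO array (log2 difference 2.41) and ranked 8 among 13871 measured genes. The list was made with earlier results of these data known, so the subcutaneous value may not be independent of it. With the floor at the 60th percentile the subcutaneous log2 difference was 0.97.

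**Figure D1:**
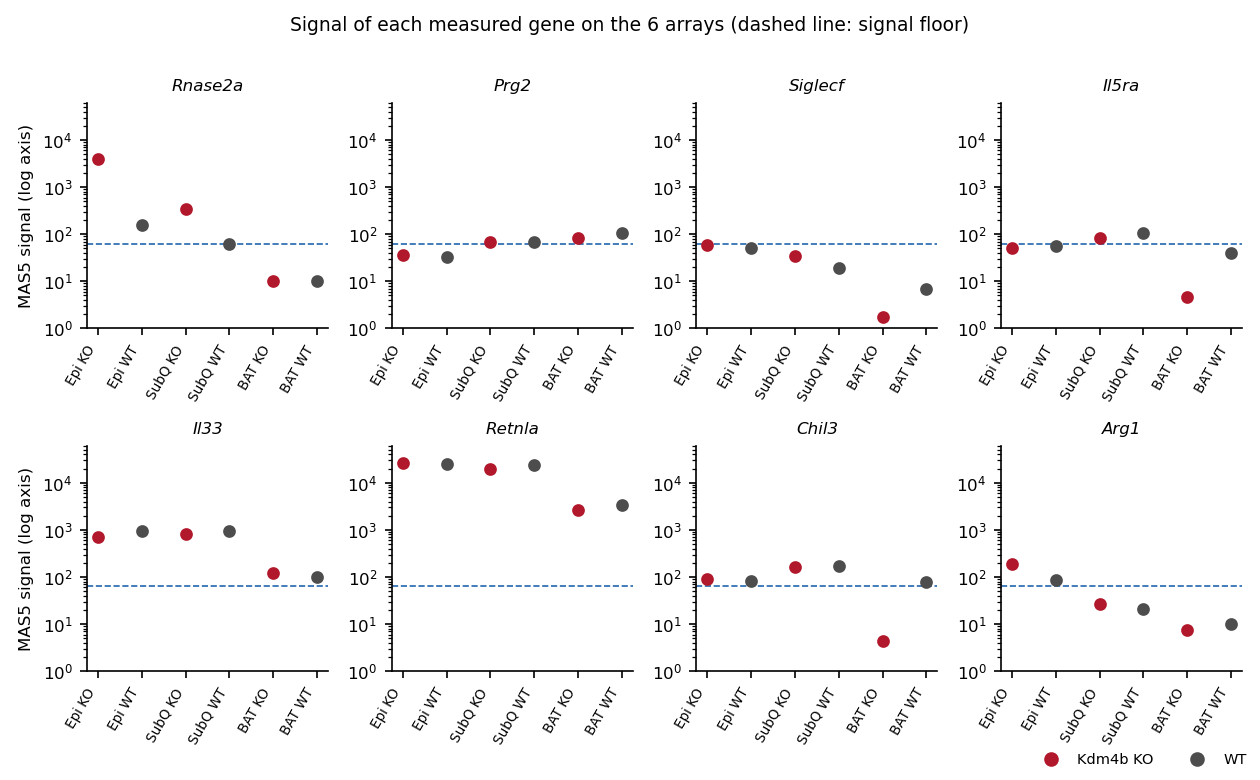
MAS5 signal (log axis) of the 8 analysed genes on each of the 6 arrays, KO in red and WT in grey, with the signal floor as a dashed line. Rnase2a stands at 4016 in epididymal KO against 155 in epididymal WT, while Retnla and Il33 separate brown from white fat and Prg2, Siglecf and Il5ra lie near or under the floor.

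Rnase2a lies in the ribonuclease A gene cluster of chromosome 14, in which Rnase2b, its close relative, and Ang2 and Ear14 are among its neighbours in the RefSeq order. The promoters of Rnase2a and Rnase2b are shown because these relatives had unlike signals, together with that of Retnla, the type 2 gene discussed further on. Each is the window of 250 bases before the annotated start, from RefSeq on GRCm38.p6, at chr14:51256113-51256362 on the minus strand for Rnase2a, chr14:51162010-51162259 on the plus strand for Rnase2b and chr16:48842359-48842608 on the plus strand for Retnla. Capitals mark matches to the searched motifs.
Rnase2a: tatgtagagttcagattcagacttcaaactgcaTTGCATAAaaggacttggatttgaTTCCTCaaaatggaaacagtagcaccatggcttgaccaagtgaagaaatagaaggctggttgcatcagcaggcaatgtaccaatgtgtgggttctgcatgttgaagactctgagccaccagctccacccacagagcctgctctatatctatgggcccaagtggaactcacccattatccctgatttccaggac
Rnase2b: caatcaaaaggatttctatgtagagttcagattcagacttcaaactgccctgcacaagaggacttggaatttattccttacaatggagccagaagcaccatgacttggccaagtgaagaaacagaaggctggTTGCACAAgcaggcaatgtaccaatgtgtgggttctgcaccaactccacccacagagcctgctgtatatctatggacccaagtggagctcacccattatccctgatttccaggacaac
Retnla: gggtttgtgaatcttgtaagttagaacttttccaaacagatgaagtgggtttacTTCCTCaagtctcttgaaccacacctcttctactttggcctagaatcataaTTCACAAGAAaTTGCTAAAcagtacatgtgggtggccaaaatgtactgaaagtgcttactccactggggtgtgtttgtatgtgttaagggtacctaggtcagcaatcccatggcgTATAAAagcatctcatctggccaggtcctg

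The motifs searched on both strands were TTC, any 4 bases, then GAA for STAT6, AGATAA for GATA factors, TTGCNNAA for C/EBP, GAGGAA for PU.1 and TATAAA for the TATA box. They occurred in 5.85%, 9.99%, 9.56%, 23.3% and 12.4% of 32851 promoter windows of the same length. Rnase2a held the C/EBP letters 217 to 210 bases before the start and the PU.1 letters, on the other strand, 193 to 188 bases before it. Rnase2b held the C/EBP letters at another place, 118 to 111 bases before the start. In a global alignment the Rnase2a and Rnase2b windows had 211 identical bases in 269 columns, or 78.4%. The Retnla window held the STAT6 letters 145 to 136, the C/EBP letters 134 to 127 and the TATA box 30 to 25 bases before the start, and the PU.1 letters on the other strand. No matches overlapped in these 3 windows. A match is a description of the letters and not a binding site.

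Other ribonuclease genes of the cluster were also on the array. Rnase2b was under the floor on all 6 arrays, at 32.8 in KO and 25.5 in WT epididymal fat. Ang and Rnase4, given after their values were seen, encode angiogenin and a ribonuclease transcribed with it. They had log2 differences of 0.64 and 0.30 in epididymal fat and -0.41 and -0.20 in subcutaneous fat. Rnase6, a ribonuclease of macrophages and other leukocytes, differed by 0.00 in epididymal fat, by -0.77 in subcutaneous fat and by -0.73 in brown fat. Of 8 listed genes on the array, 7 ribonuclease A genes and Rnh1, which encodes their inhibitor, 0 were counted at 2-fold in any depot. Of all genes 0.883% were counted as higher and 1.44% as lower in epididymal fat, a share at which 0 of 8 is no result about these genes. Ang2 and Ang4 were under the floor on all 6 arrays, so their ratios were not measured. Ear3, an eosinophil-associated ribonuclease gene, was not placed in the cluster by the RefSeq order used here and was chosen after its values were seen. It had signals of 444 in KO and 343 in WT epididymal fat, and 313 in KO and 200.02 in WT subcutaneous fat. Its log2 differences were 0.37 and 0.64, and it was under the floor in brown fat. The Ear3 probe set is of a class that can hybridise with related transcripts, and near-identical ribonucleases can share signal. The part of such sharing in the Rnase2a signal was not tested.

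**Figure D2:**
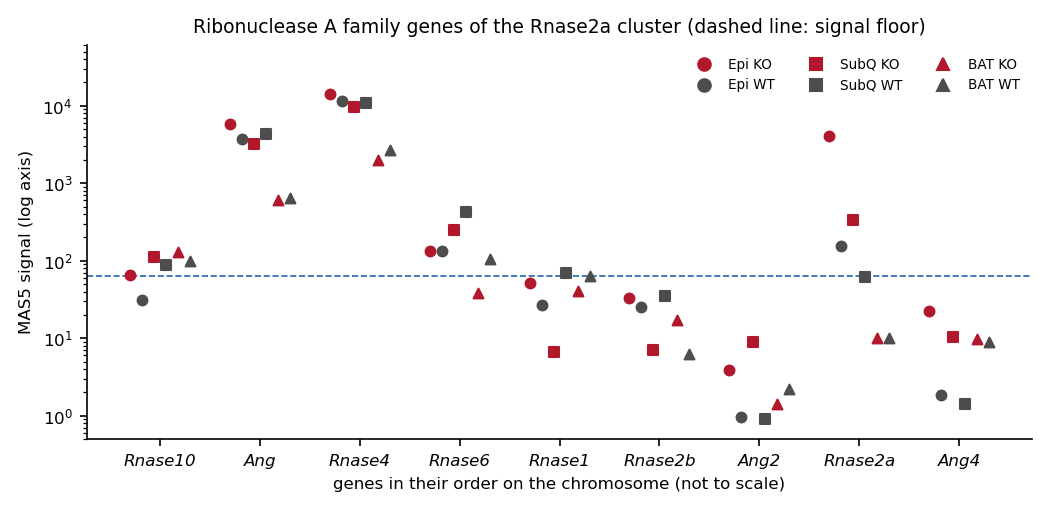
MAS5 signal (log axis) of the ribonuclease A family genes on the array, in their order along the chromosome, with KO in red, WT in grey, a symbol per depot and the floor as a dashed line. Rnase2a reaches 4016 in epididymal KO against 155 in WT, whereas Rnase2b stays under the floor on all 6 arrays.

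None of the eosinophil genes Prg2, Siglecf and Il5ra exceeded the floor in epididymal fat, where Rnase2a was high. Prg2, the major basic protein of eosinophil granules, had signals of 36.0 in KO and 32.7 in WT epididymal fat, 68.7 and 68.0 in subcutaneous fat, and 83.5 and 104 in brown fat. It was under the floor on both epididymal arrays and brightest in brown fat, where Rnase2a was dimmest. Siglecf, a sialic acid receptor of eosinophils, was under the floor on all 6 arrays, at 60.4 in KO and 50.8 in WT epididymal fat, 33.7 and 19.2 in subcutaneous fat, and 1.74 and 6.86 in brown fat. Il5ra, the receptor chain for interleukin-5, had 50.3 in KO and 55.0 in WT epididymal fat, 82.6 and 108 in subcutaneous fat, and 4.56 and 39.9 in brown fat. It exceeded the floor in subcutaneous fat alone, where its log2 difference was -0.39. Prg2 differed by 0.01 in subcutaneous and -0.31 in brown fat. Ratios of Siglecf in any depot, of Il5ra outside subcutaneous fat and of Prg2 in epididymal fat were not measured, since both arrays lay under the floor.

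A longer list of eosinophil granule and surface genes, which also held Ccl11, Ccl24, Il5 and Gata1, was mixed. It shared Adgre1, Ccl24 and Il5 with lists given further on, so the lists are not independent. Of 18 on the array, 7 never exceeded the floor, among them the defining genes Prg3, Epx (eosinophil peroxidase) and Ccr3 (the eotaxin receptor), which were picked out after their values were seen. Their signals in epididymal fat were 1.42 in KO and 1.71 in WT for Prg3, 7.30 in KO and 15.5 in WT for Epx, and 3.19 in KO and 1.41 in WT for Ccr3. In epididymal fat 9 of the 18 were measured, of which 6 were higher and 3 lower in KO, with a median log2 difference of 0.10 and a range from -0.44 to 0.46. The upper end was Alox15, a lipoxygenase gene of eosinophils and resident macrophages, named after its values were seen. Its signals were 443 in KO and 323 in WT epididymal fat, and it was under the floor on the 4 other arrays. In subcutaneous fat 2 of 10 were higher and 8 lower (median -0.37), and in brown fat 1 of 8 was higher and 7 lower (median -0.26). The count at 2-fold was 0 in each depot, which at 0.883% higher and 1.44% lower among all genes in epididymal fat, 2.21% and 0.75% in subcutaneous fat and 1.11% and 2.42% in brown fat is no result about so few genes. The median of all measured genes was -0.02, 0.04 and -0.03 in the same depots, and 46.6%, 54.6% and 46.3% of them were higher in KO. The summed signal of the 18 genes was 9402 in KO and 8326 in WT epididymal fat, 8852 and 11120.2 in subcutaneous fat, and 2359 and 2797 in brown fat. Much of that sum came from 3 genes that other cells also express, picked after their values were seen. In epididymal KO and WT fat, the eotaxin gene Ccl11 had 3289 and 2622, and Adgre1, also a macrophage marker, 1841 and 1421. The cytokine receptor gene Csf2rb had 1624.5 and 1648 on the same arrays. In bulk tissue, fewer cells of a type and less RNA per cell cannot be told apart.

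**Figure D3:**
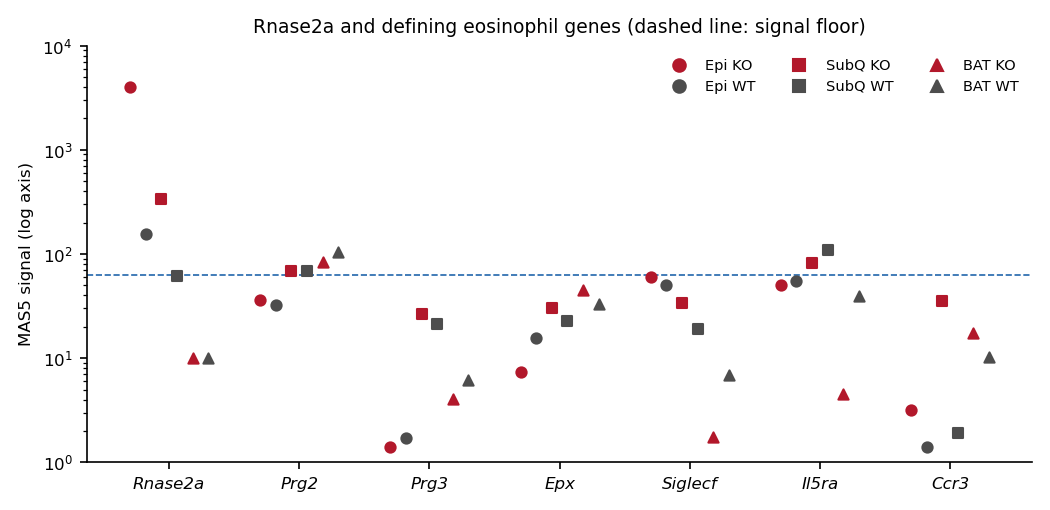
MAS5 signal (log axis) of Rnase2a and 6 defining eosinophil genes on the 6 arrays, KO in red and WT in grey, a symbol per depot, with the floor dashed. Prg3, Epx, Siglecf and Ccr3 lie under the floor on every array and Prg2 and Il5ra close to it, while Rnase2a reaches 4016 in epididymal KO.

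Il33 encodes the alarmin interleukin-33. Its signals were 706 in KO and 925 in WT epididymal fat, 804 and 949.8 in subcutaneous fat, and 120.1 and 102 in brown fat. The white arrays of both genotypes lay well above the brown ones. Its log2 differences of -0.39, -0.24 and 0.24 included 1, the epididymal one, larger than the SD between probe sets. Among 7 genes for alarmins and their receptors on the array, 1 of 6 measured was higher and 5 lower in epididymal KO (median -0.24), 2 of 6 were higher and 4 lower in subcutaneous KO (median -0.08), and 2 of 5 were higher and 3 lower in brown KO (median -0.25). Of all measured genes 46.6%, 54.6% and 46.3% were higher in KO in the same depots. The count at 2-fold was 0 in each depot, close to the shares among all genes given above.

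The cytokine genes that these alarmins induce were at low signals. Il5 and Il13 were under the floor on all 6 arrays, and Il4 (all 3 given after their values were seen) reached 64.1 in the epididymal KO array against 28.1 in WT, barely over the floor. Of the 13 listed type 2 cytokine, receptor and regulator genes on the array, 3 of 8 measured were higher and 5 lower in epididymal fat (median -0.04, which became 0.02 and 0.06 under other scalings of the arrays). In subcutaneous fat 4 of 9 were higher and 5 lower (median -0.01), and in brown fat 5 of 8 were higher and 3 lower (median 0.17). The subcutaneous median became -0.09 with quantile normalization and -0.26 with median centring. Of all measured genes 46.6%, 54.6% and 46.3% were higher in KO in epididymal, subcutaneous and brown fat. At 2-fold the count was 0 in each depot, again close to the shares among all genes.

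Retnla, Chil3 and Arg1 are products of macrophages stimulated by interleukin-4 or interleukin-13, and they differed from each other. Retnla, which encodes the secreted resistin-like molecule alpha, had signals of 26387 in KO and 24633 in WT epididymal fat, 19714.5 and 23731 in subcutaneous fat, and 2605 and 3316 in brown fat. The white arrays were all far above the brown ones, and the genotype differences were small, at 0.10, -0.27 and -0.35 on the log2 scale. Chil3, a chitinase-like protein gene, had 90.5 in KO and 80.4 in WT epididymal fat, 165 and 175 in subcutaneous fat, and 4.30 and 76.5 in brown fat. Its log2 differences were 0.17, -0.08 and, against a KO array under the floor, -0.28. Arg1, which encodes the arginine-degrading enzyme arginase, had 184 in KO and 85.8 in WT epididymal fat and was under the floor on the other 4 arrays, at 26.9 in KO and 20.9 in WT subcutaneous fat and 7.54 in KO and 9.96 in WT brown fat. It was 2.15-fold higher in the epididymal KO array, a log2 difference of 1.10, and ranked 78 among 13244 measured genes. With the floor at the 60th percentile that difference was 0.10.

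Rnase2a and Arg1 were thus the 2 members past 2-fold among 5 measured in epididymal fat, both higher in KO. Of all genes 0.883% were past 2-fold upward and 1.44% downward there, and the count is a description because that comparison chose the list. In subcutaneous fat 1 of 6 measured members, Rnase2a, was at least 2-fold higher, against 2.21% of all genes, and 0 were lower, against 0.75%. In brown fat 0 of 4 measured members passed 2-fold, against 1.11% of genes higher and 2.42% lower. How many of the genes past 2-fold were higher in KO depended on scaling. As deposited, with quantile normalization and with median centring, it was 38.0%, 51.7% and 56.4% in epididymal fat, 74.7%, 63.7% and 49.8% in subcutaneous fat, and 31.5%, 44.9% and 51.4% in brown fat. Without Rnase2a, the measured members ranged from -0.39 to 1.10 in epididymal, -0.39 to 0.01 in subcutaneous and -0.35 to 0.24 in brown fat.

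Alternatively activated macrophage genes were mostly higher in the 1 epididymal KO array, by small amounts. Of 17 measured, 16 were higher and 1 lower there (median 0.23), whereas 6 of 17 were higher and 11 lower in subcutaneous fat (median -0.13) and 4 of 15 were higher and 11 lower in brown fat (median -0.35). Among all measured genes 46.6%, 54.6% and 46.3% were higher in KO in the same depots. Ccl22, at 70.9 in KO and 27.8 in WT epididymal fat, was measured through the KO array alone and could only count as higher. The medians kept their sign under both other scalings. The epididymal median of 0.23 was smaller than the SD of 0.31 between probe sets of a gene in that depot. Mgl2, a galactose-binding lectin gene of these macrophages, was 2.74-fold higher in epididymal fat, at 2210.0 in KO and 807 in WT. It ranked 18 in that depot and had log2 differences of 0.26 in subcutaneous and -0.88 in brown fat. Of general macrophage markers 11 of 12 were higher in epididymal KO (median 0.23), 0 of 12 in subcutaneous KO (median -0.47) and 0 of 10 in brown KO (median -0.26). Their summed signal was 51813 in KO and 44885 in WT epididymal fat, 43117 and 57013 in subcutaneous fat, and 8646 and 11084 in brown fat, and each of the 12 exceeded the floor on at least 1 array. Their part in the values of the other list was not tested.

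Mast cell and basophil markers, which share cytokines and receptors with eosinophils, were lower in KO for 6 of 6 measured in epididymal (median -0.56), 7 of 9 in subcutaneous (median -0.49) and 6 of 6 in brown fat (median -0.30). Among all measured genes 53.4%, 45.4% and 53.7% were lower in KO in the same depots. At 2-fold, 1 of 6 was lower in epididymal, 0 of 9 in subcutaneous and 2 of 6 in brown fat. Of all genes 1.44%, 0.75% and 2.42% were so counted. The histamine-forming enzyme gene Hdc was the most different in epididymal fat, at 78.2 in KO and 247 in WT, or 3.15-fold lower. Neutrophil markers were higher for 3 of 4 measured in epididymal (median 0.22), 6 of 7 in subcutaneous (median 0.98) and 1 of 4 in brown fat (median -0.50). Of all measured genes 46.6%, 54.6% and 46.3% were higher in KO there. At 2-fold, 1 of 4 neutrophil markers was higher in epididymal fat (0.883% of all genes) and 3 of 7 in subcutaneous fat (2.21%). In brown fat 1 of 4 was lower (2.42%). Skeletal muscle markers had medians of -1.38, 0.23 and -4.42 and seminal vesicle markers -0.59, -2.34 and 0.47 in the same depots. At 2-fold, 8 of 10 muscle markers were lower in epididymal fat (1.44% of all genes) and 10 of 10 in brown fat (2.42%). In subcutaneous fat 3 of 10 were higher (2.21%). Of 5 seminal vesicle markers, 1 was lower in epididymal fat and 4 in subcutaneous fat (0.75% of all genes). In brown fat 1 of the 5 was higher (1.11%). The part of any of these tissues or cells in the members' values was not tested.

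**Figure D4:**
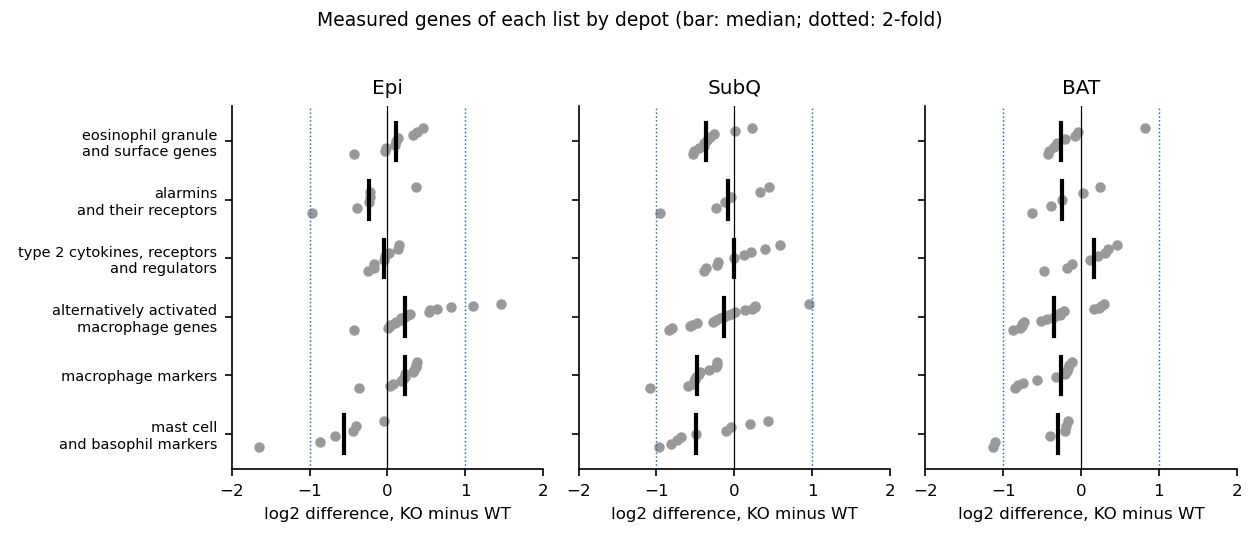
Log2 difference between KO and WT of each measured gene of 6 lists, by depot, with the median as a bar and 2-fold as dotted lines. Alternatively activated macrophage genes and macrophage markers have medians of 0.23 in epididymal fat and negative medians in both other depots.

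Genotype was tested with limma in the subcutaneous and brown arrays, the depots outside the comparison that chose the list. Depot was a term, and the depots stood in for replicates. The list was made with earlier results of these data known, which may have included these depots. Of 13727 genes, 0 rose and 0 fell at an adjusted p under 0.05, or 0% each way, while an unadjusted p under 0.05 was found for 377 higher and 366 lower genes. The 5 members in that fit, Prg2, Il5ra, Il33, Retnla and Chil3, had adjusted p from 0.898 upward, and 0 had an unadjusted p under 0.05. The Retnla estimate was -0.31 ± 0.16 (SE, 2 against 2 arrays), with a 95% interval from -0.75 to 0.14 on the log2 scale. The estimate for Il33 was 6.3e-05, with an interval from -0.54 to 0.54. Without the floor the estimates were -2.12 for Chil3 and -1.76 for Il5ra, against -0.18 and -0.19 with it, each with a limma adjusted p of 0.910. Intervals this wide do not show that a gene was unaffected.

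Depots were compared with limma over all 6 arrays, with genotype as a term. Retnla was 7.99-fold lower in brown than in white fat, at mean log2 signals of 11.52 in BAT and 14.52 in the 4 white arrays (limma log2 difference -2.998 ± 0.15 SE, adjusted p = 0.000437, 2 against 4 arrays). Il33 was 7.60-fold lower in brown fat, at 6.79 in BAT and 9.71 in white fat (-2.93 ± 0.17 SE, limma adjusted p = 0.000466). Both brown arrays lay below all 4 white arrays for Retnla and for Il33. Chil3 was at least 1.73-fold lower in brown fat (-0.79 ± 0.15 SE, limma adjusted p = 0.00872), with 1 of the 2 brown arrays under the floor. Prg2 was higher in brown fat by 0.50 ± 0.14 SE (limma adjusted p = 0.0307), with both epididymal arrays under the floor. Chil3 was called under 9 of 12 alternatives. Its call was lost without the brown KO array (limma adjusted p = 0.0602), without the filter (limma adjusted p = 0.0501) and without a floor, where the log2 difference was -2.73 (limma adjusted p = 0.103). Prg2 was called under 4 of 11 alternatives, with adjusted p from 0.0122 to 0.188, and its call was lost without any array other than brown KO, whereas Retnla and Il33 were called under 12 of 12. For each of these 4 members, 1 alternative that kept the call was the mean of all probe sets. It could not change their log2 differences, since each had 1 probe set. Among all 13232 genes tested, 31.2% fell and 21.5% rose in brown fat.

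In the wider lists, of 17 alternatively activated macrophage genes tested, 15 fell in brown fat, as did 12 of 12 macrophage markers, with medians of -2.39 and -2.06 against -0.11 for all genes. Ccl24, an eotaxin gene, was at least 8.95-fold lower (limma adjusted p = 0.000441), Ccl11, another eotaxin gene, 3.603-fold lower (limma adjusted p = 0.00149), and Tslp, which encodes an epithelial and stromal alarmin, at least 4.21-fold lower (limma adjusted p = 0.00164). These 3 genes were picked after their values were seen. Of 10 mesothelial and stromal markers, cells that are a source of interleukin-33, 9 fell in brown fat. Between the white depots, 5 of these 10 were called lower and 1 higher in subcutaneous than in epididymal fat. Msln and Wt1, picked after their values were seen, had mean log2 signals of 9.98 and 8.85 in epididymal fat. In subcutaneous fat both were at the floor of 5.98, and in brown fat they had 6.24 and 6.01. Their fall was thus against epididymal fat alone. The part of these cell types in the values of Retnla and Il33 was not tested.

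Between the white depots 1 member changed. Chil3 rose 1.99-fold in subcutaneous against epididymal fat, at mean log2 signals of 7.41 in SubQ and 6.41 in Epi (0.99 ± 0.17 SE, limma adjusted p = 0.0424, 2 against 2 arrays), where 3.91% of all genes rose and 1.16% fell. Its call held under 1 of 12 alternatives, with adjusted p from 0.0333 to 0.693, and it was lost without any of the 6 arrays. That alternative was the mean of all probe sets. Chil3 had 1 probe set, so its log2 difference could not change there. Retnla differed by -0.24 (95% interval -0.68 to 0.20), Il33 by 0.11 (-0.40 to 0.62) and Prg2 by 0.11 (-0.29 to 0.52), none with an adjusted p under 0.05. Of the 17 alternatively activated macrophage genes 4 rose, namely Chil3, Ccl8, Ccl22 and Pdcd1lg2 (named after their values were seen), while T cell markers rose for 4 of 6 tested and B cell markers for 3 of 6. Siglecf, Il5ra and Arg1 had too few arrays above the floor for the fits over 6 arrays.

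**Figure D5:**
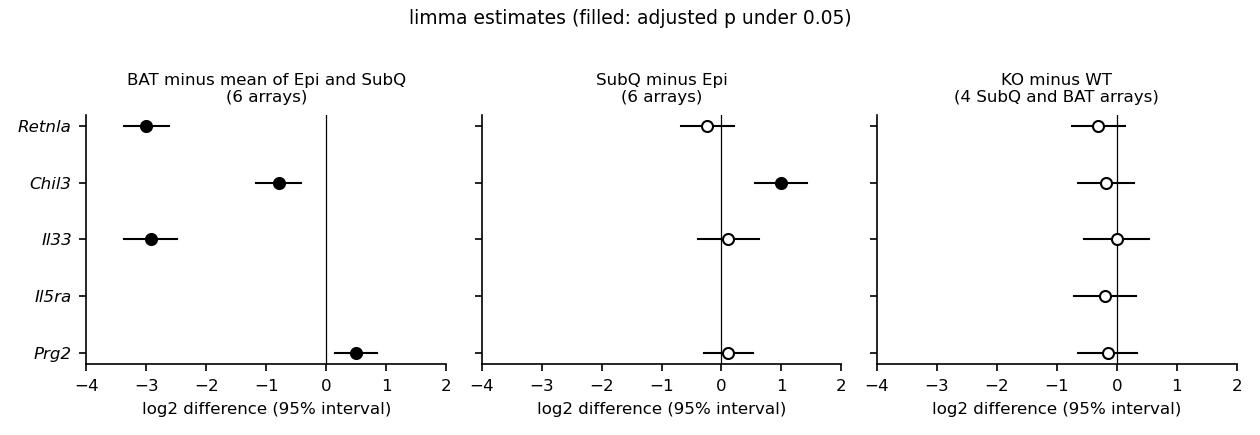
Log2 differences with 95% intervals from limma for the tested members, in brown against white fat, subcutaneous against epididymal fat, and KO against WT over subcutaneous and brown fat, with filled points for an adjusted p under 0.05. Retnla (-2.998) and Il33 (-2.93) are lowest in brown fat, and the intervals of all 5 members include 0 for genotype.

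Genes with the profile most like that of Rnase2a over the 6 arrays, taken from 6985 genes that varied at least 2-fold, were Uchl1, Gm11627, Esm1, Cyp2c23 and Mrgprg, with Pearson r between 0.96 and 0.98. The 6 points share depots and genotypes, and brown fat is at the floor on both arrays for 4 of these 5 genes, so these values only describe the ranking. Cyp2c23, a cytochrome P450 gene whose probe set may hybridise with related transcripts, had signals of 199 in KO and 30.9 in WT epididymal fat and 108 in KO and 38.1 in WT subcutaneous fat. Esm1, an endothelial proteoglycan gene, had 147 in KO and 37.0 in WT epididymal fat and 82.7 in KO and 50.3 in WT subcutaneous fat. None of the 5 belongs to the eosinophil or type 2 lists. Among the members, Arg1 had r = 0.91 with Rnase2a, Retnla 0.55, Il33 0.45 and Chil3 0.06. Arg1 exceeded the floor on the 2 epididymal arrays alone, and the epididymal KO value of Rnase2a chose the list. The r of Arg1 is therefore a description of that depot and no support for a shared pattern.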

How the data were processed

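The measurements are Affymetrix intensity signals of biotin-labelled total RNA, 6 arrays in all, with a 2% trimmed mean of 500.0 each as deposited, so a change in total RNA cannot be seen. MAS5 and Affymetrix Expression Console are the tools named in the submitters' processing notes. Their versions and the array's genome build were not given in the sources used here.

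Of 45037 non-control probe sets, 34945 had 1 gene symbol, 932 several and 9160 none in the platform annotation. Each gene took its brightest single-symbol probe set, floored and put on the log2 scale. A gene counts at 2-fold if its brighter array exceeded the floor.

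limma 3.58.1 (R 4.3.3) was fitted to all genes over the floor on at least 3 of 6 arrays, or 2 of 4, with Benjamini-Hochberg adjustment over all of them. It was also run on simulated data with independent noise on each array. That simulation cannot show how the fit behaves where depots stand in for replicates. The limma p-values measure the spread among these arrays, not among mice. Rnase2a was given no test. No depot has a replicate.

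The rule for naming covered the members, up to 4 genes per list with the largest difference past 2-fold, ribonuclease genes beside Rnase2a and the 5 genes most like it. Not all genes under that rule are named here, among them most of those of the lists. Others are named where a count is small or a list's values called for it, after their values were seen. The members and lists were chosen with earlier results of these data known. Alternatives changed the scaling (quantile, median centring), floor, probe sets (mean of all, or none of those prone to cross-hybridise), fold threshold, filter, variance trend and arrays. Tables and plots were made in Python 3.11.15 with pandas 2.3.3, numpy 2.4.6, matplotlib 3.10.9 and scipy 1.17.1.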

Additional observations from a re-analysis of the deposited data

How the results depend on the processing

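The epididymal Rnase2a log2 difference stayed between 4.55 and 4.83 under 6 alternatives. The subcutaneous one of 2.41 stayed between 0.97 (floor at the 60th percentile) and 2.46. Rnase2a had 1 probe set, so the probe set alternatives could not move either value. The floor at the 20th percentile could not move the epididymal one, since both arrays exceeded the main floor. Of 152 values of single genes, 126 counted as unchanged. Some of these could not move, since the analysed members and Mgl2 had 1 probe set each. The mean of all probe sets left their log2 differences as they were. For limma estimates this meant the same direction and side of the threshold. For epididymal log2 differences it meant a move smaller than the SD between probe sets. Members past 2-fold numbered 1 in epididymal and 0 in subcutaneous fat with the floor at the 60th percentile, 2 in brown fat (Il5ra and Chil3) with the floor at the 20th, and 1 in epididymal fat at 3-fold. All genes past 2-fold numbered 308 in epididymal fat, 411 in subcutaneous fat and 486 in brown fat, against 1154, 1632 and 2024 with the floor at the 20th percentile, 129, 117 and 116 with the floor at the 60th, 187, 265 and 289 with the mean of all probe sets, 1455, 1737 and 1896 at 1.5-fold, and 53, 50 and 86 at 3-fold. Median centring shifted the median of all genes to 0.11, -0.12 and 0.11 in the 3 depots.

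In brown against white fat, 4 members were called, 2 without a filter and 3 with any array left out, while all genes called numbered 6970 and between 4859 and 6429 with 1 array left out. In subcutaneous against epididymal fat the 1 member called was Chil3, and 0 were called under quantile normalization, median centring, no floor, no filter, an intensity trend and each array left out (range 0 to 0). All genes called there numbered 670, against 1896 with median centring, 115 without floor, 84 without filter, 1292 with the trend and 78 to 573 with 1 array left out. Of the genes called, 77.2% were higher as deposited, 62.4% with quantile normalization and 27.3% with median centring. Il33 in that contrast changed sign to -0.23 with median centring and, with 1 array left out, lay between -0.083 (without epididymal KO) and 0.31. Arg1 in epididymal fat was 0.10 with the floor at the 60th percentile.

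For genotype over subcutaneous and brown fat, 0 genes were called, against 55 with median centring and 29 with the trend, and 0 members under any of 7 alternatives. The Il33 estimate there was -0.0056 with median centring and -0.13 with the epididymal arrays added. The causes were not tested. No paired analysis was possible because no replicate numbers are shared beyond 1 array per depot and genotype, apart from the depot and genotype terms that the fits already hold. Signals near the floor limit Prg2, Siglecf, Il5ra, Chil3 and Arg1.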
